A study of Mus musculus with 8 samples.

Results

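Serpina3n and the genes of the acute-phase response were followed through the cell types of the mouse iris at rest and after 6.5 hours of drug-induced pupil constriction or dilation. The 10 genes were chosen by name: Serpina3n itself and 9 companions, namely the related inhibitors Serpina3m and Serpina3g, the secreted protein Lcn2, the receptor chains Osmr and Il6st, the transcription factors Stat3, Cebpb and Cebpd, and the feedback inhibitor Socs3. Of these 10 genes, 9 are among the 22873 genes of the count tables, and Serpina3g was not analysed here. Serpina3n was chosen because it rose with both treatments, so its levels are a description and carry no test.

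The data are single nucleus RNA-seq counts of 34357 nuclei from 8 libraries, each made from 5 or 6 irises with a variable amount of ciliary body from wild-type female albino mice of 6 to 8 weeks. Mice of the 3 untreated libraries (14365 nuclei) had no drops, those of the 3 constricted libraries (8965 nuclei) had hourly 5% pilocarpine eye drops in the light, and those of the 2 dilated libraries (11027 nuclei) had hourly 5% phenylephrine with 1% cyclopentolate in the dark. Drug and lighting thus cannot be told apart. No group had drops without a drug, so the effect of hourly drops and handling cannot be told apart from that of the drugs or of pupil size. Pilocarpine activates muscarinic receptors and contracts the sphincter, phenylephrine activates alpha-1 adrenergic receptors on the dilator, and cyclopentolate blocks muscarinic receptors. Libraries held 5189437 to 25136427 unique molecular identifiers (UMIs, each counting 1 captured RNA molecule), with a median of 2775 to 4697.5 per nucleus. The authors sorted the nuclei into 10 cell types: dilator muscle, sphincter 1 and sphincter 2, iris pigment epithelium (iris PE), stroma 1 and stroma 2, ciliary body (CB), ciliary body epithelium (CBE), leukocytes and endothelial cells. Dilator nuclei carried the muscle markers Adra1a, Nos1 and Myh11, at a summed level of 2406 to 2832 CPM (UMIs of a gene per 1e+06 UMIs of that cell type in the library) when untreated, 2654 to 2909 when constricted and 1583 to 1623 when dilated. Of the barcodes, 195 occurred in more than 1 library. Untreated replicate 1 and dilated replicate 1 shared 63, or 4.26% of those of the smaller library, and every other pair at most 0.947%, and the part of this in the results was not tested. Counts fell from 11606 dilator nuclei to 273 endothelial nuclei, so that rare cell types hold only a few UMIs of a weak gene.

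The acute-phase response is a change in secreted proteins after injury or inflammation, best known from the liver. Cytokines of the interleukin-6 family bind a specific receptor chain, such as the oncostatin M receptor OSMR, which pairs with the shared chain gp130, the product of Il6st. Kinases of the JAK family then phosphorylate STAT3, which enters the nucleus and activates target genes, among them Socs3, whose product shuts the pathway off again. C/EBP-beta and C/EBP-delta, encoded by Cebpb and Cebpd, work with STAT3 at many acute-phase genes. Serpina3n encodes a secreted serine protease inhibitor, a mouse counterpart of human alpha-1-antichymotrypsin, and is widely used as a marker of reactive astrocytes. Lcn2 encodes lipocalin 2, which binds bacterial iron carriers.

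Serpina3n lies at chr12:104406729-104414329 on the plus strand of mm10 (GENCODE vM21), in a cluster of related genes. Serpina3m, at chr12:104338486-104394257 on the same strand, ends 12472 bases before it and overlaps the annotated Serpina3k gene, so its counts are uncertain. RefSeq windows of the 250 bases before the start were found for 8 of the 10 genes (GRCm38.p6, the mm10 assembly). They were searched on both strands for the STAT palindrome TTCNNNGAA, the C/EBP motif TTGCNNAA, the AP-1 motif TGANTCA and the TATA box TATAAA, which 7.02%, 9.56%, 6.75% and 12.4% of 32851 such windows hold. The windows of Serpina3n, chr12:104406458-104406707, and of Serpina3g, chr12:104235897-104236146, both on the plus strand, are shown to compare these related genes. Capitals mark the STAT palindrome.
Serpina3n: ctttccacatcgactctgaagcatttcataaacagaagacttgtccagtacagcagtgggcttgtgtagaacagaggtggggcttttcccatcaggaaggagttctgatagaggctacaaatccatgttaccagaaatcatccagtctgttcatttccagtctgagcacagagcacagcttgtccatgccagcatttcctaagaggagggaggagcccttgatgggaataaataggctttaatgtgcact
Serpina3g: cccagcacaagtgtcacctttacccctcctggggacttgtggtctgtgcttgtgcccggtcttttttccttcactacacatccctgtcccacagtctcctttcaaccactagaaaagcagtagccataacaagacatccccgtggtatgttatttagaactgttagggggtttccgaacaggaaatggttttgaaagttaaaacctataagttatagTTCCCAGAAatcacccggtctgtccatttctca
The Serpina3n window held none of the 4 motifs, and neither did those of Stat3, Osmr, Il6st and Cebpb. The Serpina3g window held TTCCCAGAA 33 bases before the start. The Socs3 window held TTCTTAGAA 154 bases before the start, and the Lcn2 window held the C/EBP motif TTGCTCAA 216 bases before it. These distances are from RefSeq starts. The windows of Socs3, Lcn2 and Osmr lie inside the genes as annotated in GENCODE vM21. These matches describe letters only.

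In untreated irises Serpina3n was a gene of the ciliary body. CB nuclei made up 2.41% of all untreated nuclei and held 72 of the 128 Serpina3n UMIs, or 56.3%. The CB level was 107, 35.6 and 57.4 CPM in the 3 libraries (66.6 ± 36.5, SD, n = 3). Every other cell type was far lower: 2.24 ± 0.957 CPM in iris PE, 2.03 ± 1.53 in dilator muscle and 0.69 ± 0.605 in stroma 2 (SD, n = 3), and the ranges of dilator muscle overlapped with those of both others. Only 1 or 2 UMIs were found in each of CBE, sphincter 1 and endothelial cells, and none in sphincter 2, stroma 1 or leukocytes.

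Within CB the UMIs were unevenly spread between nuclei. In untreated CB, 35 of 346 nuclei (10.1%) had a Serpina3n UMI, 10 had more than 1, and the top 10 nuclei held 65.3% of the UMIs, with up to 18 in 1 nucleus. Dilated CB showed the same unevenness, with 113 of 635 nuclei positive and 15 nuclei holding at least 5 UMIs. By contrast, no untreated iris PE nucleus had more than 1 Serpina3n UMI.

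Constriction was accompanied by a rise of Serpina3n that was largest in iris PE. There the untreated libraries had 3.34, 1.79 and 1.60 CPM and the constricted libraries 59.8, 45.1 and 49.8 CPM, a 23.0-fold difference of the means with no overlap between groups. In dilator muscle the level went from 3.74, 1.55 and 0.791 CPM to 15.9, 11.5 and 15.9 CPM, or 7.12-fold, again with no overlap. The untreated libraries held only 22 Serpina3n UMIs in iris PE and 22 in dilator muscle, so folds over untreated, here and below, are imprecise. The CB libraries overlapped between groups, with 128, 94.2 and 35.01 CPM after constriction and a ratio of means of 1.29. Iris PE became the main site of the transcript, with 370 of 692 UMIs or 53.5%, while its part of the nuclei was 25.1%.

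In dilated irises Serpina3n was higher than untreated in the same cell types, in another order. Dilator muscle reached 48.6 and 54.3 CPM, 25.4-fold above untreated and 3.57-fold above constricted, with no overlap with either group. Iris PE reached 42.6 and 31.2 CPM, 16.4-fold above untreated, and here both dilated libraries lay below all 3 constricted ones. CB was at 136 and 138 CPM, above all untreated libraries by a ratio of means of 2.05. Dilator muscle now held 763 of 1462 Serpina3n UMIs, or 52.2%. In the order of levels after dilation, CB (137 ± 1.33 CPM) came before dilator muscle (51.4 ± 4.05) and iris PE (36.9 ± 8.11), with no overlap between neighbours (SD, n = 2), whereas after constriction CB (85.9 ± 47.2) and iris PE (51.5 ± 7.51) overlapped and dilator muscle (14.4 ± 2.51) was below all of their libraries (SD, n = 3).

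**Figure D1:**
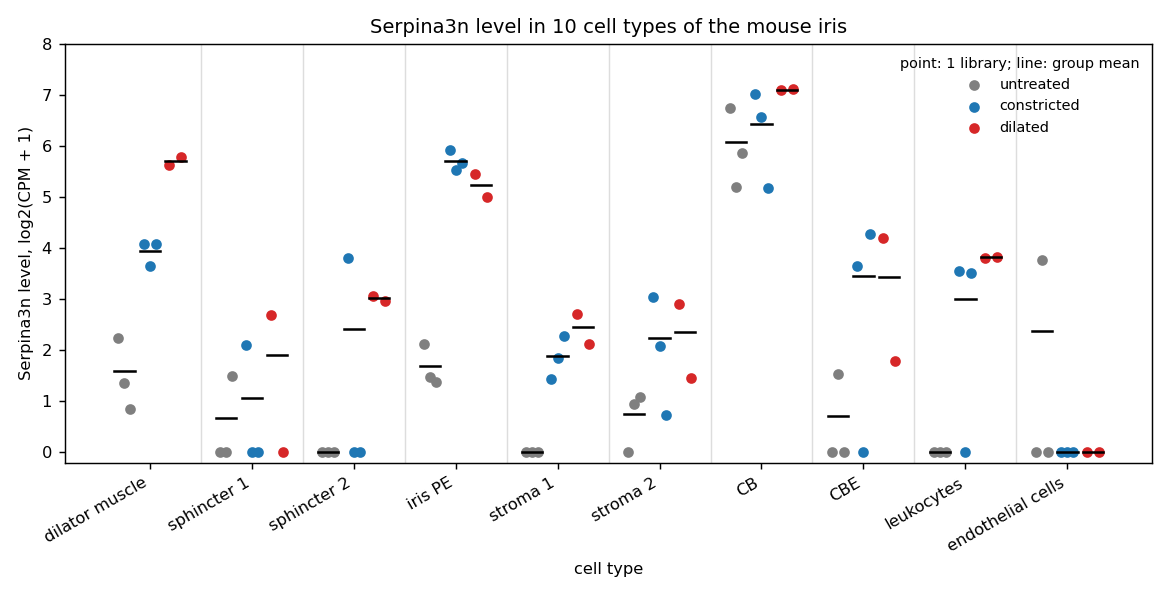
Serpina3n level, as log2(CPM + 1), in each library (points) and on average (lines, the mean CPM of the group) in the 10 cell types of untreated, constricted and dilated irises. In dilator muscle the order is untreated, constricted, dilated, with mean levels of 2.03, 14.4 and 51.4 CPM, while in iris PE the constricted libraries are highest.

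The remaining cell types changed on few molecules. Stroma 1 had 0 UMIs in the untreated libraries, 4 in the constricted and 6 in the dilated ones, so that the pooled levels were at least 3.17-fold and 5.38-fold higher than a floor of 3 UMIs over the pooled untreated nuclei. Stroma 2 had 7, 17 and 27 UMIs, and its constricted libraries (7.29, 3.22 and 0.656 CPM) overlapped with the untreated ones. In CBE, 36 of the 37 dilated UMIs came from dilated replicate 1. Sphincter 2 had 0, 4 and 4 UMIs, the constricted ones all from replicate 1. Sphincter 1, leukocytes and endothelial cells never exceeded 3 UMIs per group. In droplet counts a low share of positive nuclei can come from free RNA, and its part here was not tested. Stroma 1, where the gene was near 0, had 0%, 0.743% and 1.24% of nuclei positive at a median of 2691, 2576.5 and 2619 UMIs per nucleus.

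The share of nuclei with a Serpina3n UMI was above the stroma 1 share in treated iris PE and dilator muscle. Other cell types with few UMIs had higher shares than stroma 1 in some libraries. In constricted replicates 1, 2 and 3 sphincter 2 had 4.17%, 0% and 0% and CBE 4.03%, 0% and 5.77%. The constricted dilator shares lay within that CBE range. In dilated replicates 1 and 2 CBE had 4.68% and 0.84%. In dilator muscle 0.267% to 1.49% of the nuclei of an untreated library were positive, 3.22% to 4.92% of a constricted library, and 12.5% and 12.3% of the dilated libraries (exact 95% intervals 11.2% to 13.9% and 10.6% to 14.2%, which cover counting error only). Iris PE had 0.525% to 1.17%, 10.6% to 14.7%, and 9.17% and 6.35%. Median depth was 3410, 3193.5 and 3758 UMIs in untreated, constricted and dilated dilator nuclei and 3173, 2901 and 3083.5 in iris PE nuclei. After thinning each nucleus to 1000 UMIs the shares were 0.162%, 1.1% and 4.16% in dilator muscle and 0.217%, 5.24% and 2.88% in iris PE, so the order was kept at equal depth. Positive dilated dilator nuclei carried 1.58 UMIs on average and at most 11, against 1.05 and 2 in untreated dilator nuclei.

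**Figure D2:**
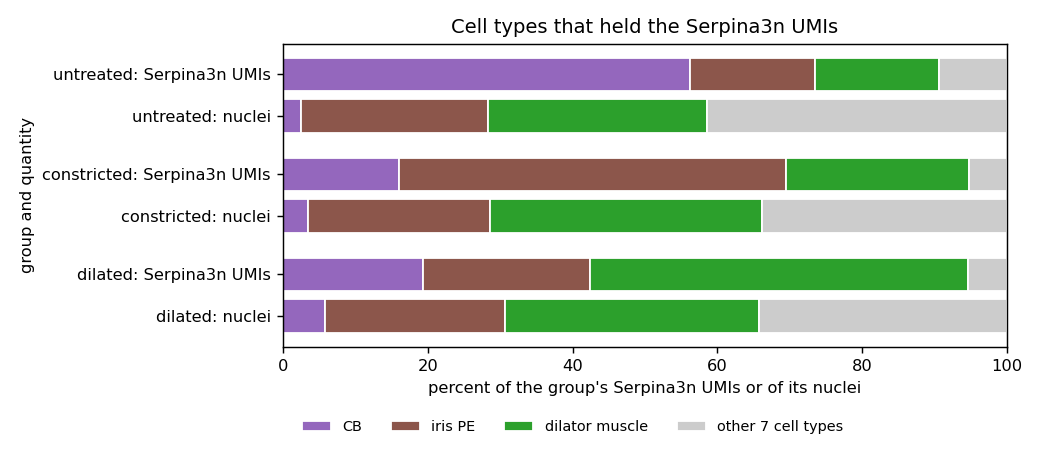
Percent of the Serpina3n UMIs of each group (upper bar of a pair) and of its nuclei (lower bar) that lay in CB, iris PE, dilator muscle and the other 7 cell types. The largest part of the UMIs was in CB when untreated (56.3%), in iris PE when constricted (53.5%) and in dilator muscle when dilated (52.2%).

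Library numbers fall in separate series, of which those given here contain all 3 conditions. The labels do not call them batches. In the series with numbers 2 to 4, which holds replicate 1 of each condition, the dilated dilator level was 12.99-fold and the constricted level 4.24-fold the untreated one, and in the series 15 to 18 the ratios were 46.4 and 13.6. The iris PE ratios were 12.7 and 17.9 in the first series and 18.4 and 29.4 in the second. These ratios rest on 6 untreated UMIs in dilator muscle and 4 in iris PE in the first series. In the second they rest on 16 and 18, so their sizes and the gap between series are imprecise. For CB the dilated ratio was 1.27 in the first and 2.96 in the second, and the constricted ratio 1.2 and 0.753, so the constricted CB ratio lay on either side of 1. Untreated replicate 1 carried the highest untreated Serpina3n level in dilator muscle, iris PE and CB. Without it the log2 ratio of the dilated to the untreated mean, at a pseudocount of 1 CPM, was 4.595 in dilator muscle and 3.81 in iris PE, in place of 4.11 and 3.55. Without dilated replicate 1 the ratios were 4.19 and 3.31.

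The calls among the companions came with dilation. Counts summed per library and cell type were compared with edgeR's quasi-likelihood test, with p-values adjusted by Benjamini-Hochberg across the genes that each cell type kept. A gene was called at an adjusted p under 0.05 and an absolute log2 fold change above 0.6. Of 80 possible pairs of a companion and a cell type, 37 passed the filter on low counts, for 7 companions. With dilation 8 of these 37 tests were called higher and none lower, for Osmr, Stat3, Cebpb and Cebpd, where 1.87% of all 85092 tests were called higher and 1.47% lower. Cebpb in leukocytes, counted among these calls, passed the filter only through its dilated libraries. In 18 of the 37 tests both dilated libraries lay above all untreated ones, against 12.2% of all tests, and in none below, against 18.5%. With constriction none of the 37 was called in either direction by edgeR or by DESeq2. An unadjusted p under 0.05 was reached by 4 of the 37 tests in edgeR. DESeq2 ran without that filter and gave 46 adjusted p-values for companions, and 5 of its tests had an unadjusted p under 0.05. The background was so low, with 8 of 85092 tests (0.0094%) called higher and 2 (0.00235%) lower, 0.0065% of genes higher in dilator muscle and 0.00708% in iris PE, that the absence of calls is no result about the companions. The constricted libraries lay above all untreated ones in 4 of 37 tests, against 4.94% of all tests, and below them in none, against 5.58%.

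Osmr, the receptor chain for oncostatin M, rose with dilation in dilator muscle and iris PE. Dilator libraries had 9.35, 4.65 and 5.7 CPM untreated, 7.94, 19.5 and 6.16 CPM constricted, and 48.7 and 59.5 CPM dilated. Dilated libraries were thus above all others, and constricted replicate 2 alone lay above the untreated range. The fitted log2 change was 3.38 ± 0.37 (SE, adjusted p = 0.00012 in edgeR, n = 2 and 3), in a cell type where 7.2% of genes were called higher and 6.14% lower. In iris PE the levels were 11.7, 8.95 and 7.46 CPM untreated and 22.9 and 18.5 CPM dilated, a log2 change of 1.27 ± 0.25 (SE, edgeR adjusted p = 0.04), where 0.453% of genes were called higher and 0.142% lower. This iris PE call was lost without constricted replicate 2, without either dilated library, and without untreated replicate 2 or 3. In stroma 2, the dilated libraries (43.9 and 49.6 CPM) lay above the untreated ones (35.1, 20.3 and 19.2 CPM) but the change of 1.05 ± 0.26 missed the threshold (SE, edgeR adjusted p = 0.073). It was called without untreated replicate 1 (1.25), without the filter on low counts and with the library series as a term. Endothelial cells had the highest untreated Osmr level, 92.0 to 271 CPM, and 206 and 144 CPM after dilation, which lay within the untreated range.

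Il6st, which encodes the gp130 chain that pairs with OSMR, was not called in any of the 8 cell types tested with either treatment, apart from 1 alternative in stroma 1 given below. In dilator muscle it stood at 38.7, 39.1 and 34.3 CPM untreated, 39.7, 56.7 and 60.2 CPM constricted, and 38.7 and 38.3 CPM dilated. The constricted libraries were thus the highest, by a log2 change of 0.49 ± 0.18 (SE, edgeR adjusted p = 1.0). The constricted estimates were above 0 in 7 of the 8 cell types tested, from 0.36 to 0.54 on the log2 scale, and -0.06 in CBE. Of all constricted tests 51.2% were above 0, and the estimates of the cell types share libraries. After dilation the largest estimate was in stroma 1, at 0.84 ± 0.25 (SE, edgeR adjusted p = 0.11), where the libraries went from 35.9, 46.9 and 38.8 CPM to 79.3 and 66.7 CPM. With the library series as a term this change was 0.89 ± 0.23 and was called (SE, edgeR adjusted p = 0.028).

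Stat3, the transducer of the pathway and a gene detected in 42.5% of all nuclei, rose with dilation in dilator muscle. Its dilator level was 254, 199 and 229 CPM untreated, 219, 194 and 180 CPM constricted, and 359 and 501 CPM dilated, with no overlap of the dilated libraries with the others. The dilation change was 1.13 ± 0.18 on the log2 scale (SE, edgeR adjusted p = 0.0011). Iris PE showed no such change, with an estimate of 0.03 ± 0.33 (SE, edgeR adjusted p = 1.0), but this value rested on untreated replicate 1, which stood at 476 CPM beside 180 and 186 CPM in the other untreated libraries. Without that library the iris PE estimate was 0.59 ± 0.19 (SE, edgeR adjusted p = 0.26) for dilation and -0.29 ± 0.18 (SE, edgeR adjusted p = 0.86) for constriction, in place of -0.84 ± 0.30. All 10 dilation estimates were above 0, against 50.2% of all tests, and 9 of them were not called. These estimates share libraries. The dilated libraries lay above all untreated ones in sphincter 1, stroma 2, CB and endothelial cells too. Of all genes tested there, 12.6%, 12.2%, 9.48% and 13.1% did the same.

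Cebpb, a basic leucine zipper factor of the acute phase, showed the largest fitted dilation change among the companions in dilator muscle. It went from 11.2, 4.5 and 5.85 CPM untreated and 4.84, 3.1 and 6.87 CPM constricted to 42.1 and 82.8 CPM dilated, a log2 change of 3.52 ± 0.38 (SE, edgeR adjusted p = 9.7e-05). Iris PE went from 7.52, 4.58 and 6.4 CPM to 15.4 and 28.8 CPM, or 1.92 ± 0.33 (SE, edgeR adjusted p = 0.021). In both cell types the dilated libraries lay above all others. Leukocytes had 33.1, 15.2 and 18.6 CPM untreated, 32.3, 0 and 52.2 CPM constricted, and 124 and 291 CPM dilated. That leukocyte change of 3.43 ± 0.80 (SE, edgeR adjusted p = 0.038, with 0.76% of genes called higher and 0.562% lower) rested on 8 and 41 UMIs. It was lost without any 1 of the untreated or dilated libraries. The untreated and constricted levels were too low for the filter on low counts, so the pair was tested only because its dilated libraries were high. Its call is thus a description. Scrublet called 7.49% of leukocyte nuclei doublets, against 0.646% in dilator muscle, and without them Cebpb was below the count filter in leukocytes.

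Cebpd, the related delta factor, rose in dilator muscle and iris PE as well. Dilator libraries had 11.8, 5.63 and 6.96 CPM untreated, 7.74, 4.43 and 7.58 CPM constricted, and 26.3 and 45.5 CPM dilated, a change of 2.48 ± 0.33 (SE, edgeR adjusted p = 0.00042). In iris PE the values were 10.0, 4.58 and 6.4 CPM untreated and 19.4 and 38.4 CPM dilated, or 2.21 ± 0.37 (SE, edgeR adjusted p = 0.02). Stroma 2 varied more, with 53.2, 17.5 and 17.8 CPM untreated, 12.9, 18.3 and 68.2 CPM constricted, and 27.5 and 182 CPM dilated, and the groups overlapped. The Cebpd change there was called without dilated replicate 1 (2.96) and without the filter on low counts, and under the last setting that of Cebpb in stroma 2 was called too.

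The calls of both C/EBP genes in iris PE were lost without untreated replicate 2 or 3 or without dilated replicate 2. The 4 dilator calls held in all 15 alternatives, including each left-out library. Within the library series, the dilated to untreated ratios in dilator muscle were 5.21 and 11.5 for Osmr, 1.42 and 2.34 for Stat3, 3.75 and 15.98 for Cebpb, and 2.22 and 7.23 for Cebpd, in each case lower in the series of replicate 1. That series held only 15, 18 and 19 untreated UMIs of Osmr, Cebpb and Cebpd there. Dilated dilator nuclei also had the lower summed marker level given above, with 1109 genes called higher and 945 lower, and the part of these in the results was not tested. Fitted changes exceed the ratios of CPM there, such as 10.4-fold against 8.24-fold for Osmr. The fit used counts on TMM-scaled libraries and the ratios used unweighted means of CPM, and the source of the gap was not tested.

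**Figure D3:**
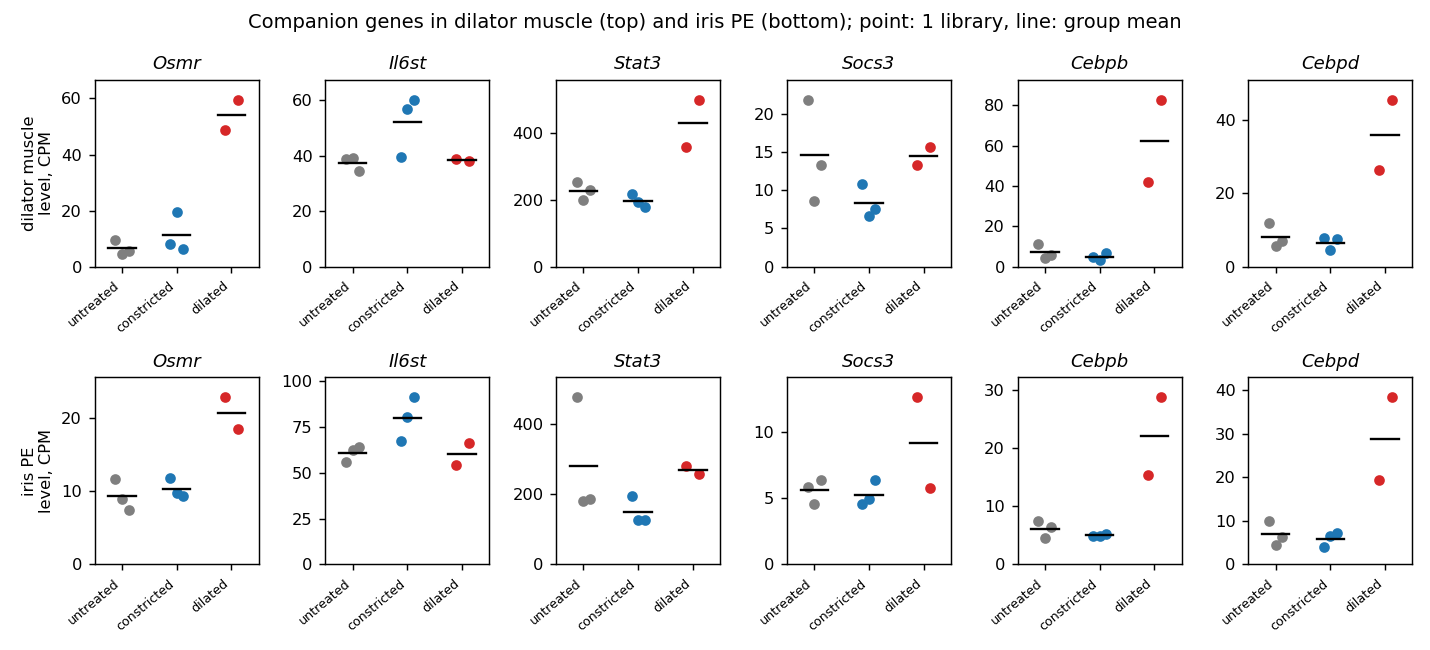
Level in CPM of Osmr, Il6st, Stat3, Socs3, Cebpb and Cebpd in each library (points) with the group mean (lines) in dilator muscle (top row) and iris PE (bottom row), each panel with its own axis from 0. Osmr, Stat3, Cebpb and Cebpd were highest in both dilated dilator libraries, Il6st was not, and untreated replicate 1 stood apart for Stat3 in iris PE.

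Socs3, the feedback inhibitor and textbook STAT3 target whose window holds the palindrome above, did not pass the test in any of the 3 cell types where it could be tested. Its dilator level was 21.8, 8.58 and 13.3 CPM untreated, 10.8, 6.65 and 7.58 CPM constricted, and 13.2 and 15.6 CPM dilated, with dilated libraries inside the untreated range. The dilation change there was 0.29 ± 0.32 (SE, edgeR adjusted p = 0.61) and the constriction change -0.63 ± 0.31 (SE, edgeR adjusted p = 1.0). In iris PE dilated replicate 1 had 12.6 CPM and dilated replicate 2 had 5.82 CPM, the second within the untreated range of 4.58 to 6.4 CPM.

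Of the remaining secreted companions, Serpina3m was not called and Lcn2 could not be tested. Serpina3m had 505 UMIs in all, more of them in iris PE than in any other cell type, where it stood at 14.2, 8.55 and 5.69 CPM untreated, 14.8, 9.02 and 8.98 CPM constricted, and 10.4 and 4.11 CPM dilated, with overlap of all groups. Its dilation estimates were -0.04 ± 0.56 in dilator muscle and -0.11 ± 0.42 in iris PE (SE, edgeR adjusted p = 0.98 and 0.99), beside the 25.4-fold and 16.4-fold higher mean CPM of Serpina3n. Lcn2 was seen as 45 UMIs in 33 of 34357 nuclei and passed the filter in no cell type. Of these UMIs, 13 lay in constricted CBE, 9 of them in replicate 2 and 3 in replicate 3, against 1 in untreated CBE. The constricted CBE libraries (2.32, 22.8 and 18.3 CPM) lay above the untreated ones (0, 0 and 2.08 CPM), as did those of iris PE on 6 against 3 UMIs. Of all genes tested there, 5.05% in CBE and 4.76% in iris PE did the same. Stroma 2 went the other way, with 0 constricted and 4 untreated UMIs, and dilator muscle had 1 and 2. These values are a description on few UMIs.

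**Figure D4:**
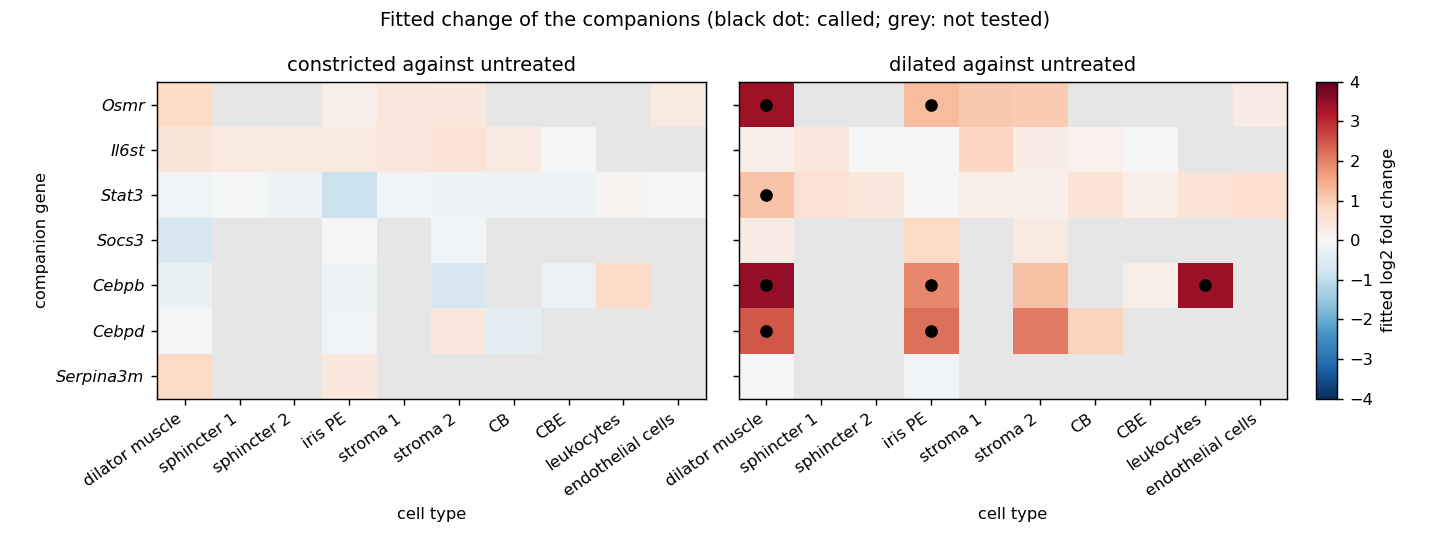
Fitted log2 fold change of the 7 companions tested (rows) in the 10 cell types (columns), constricted against untreated at left and dilated against untreated at right, where colour gives the change, grey means not tested and a black dot a call. The 8 calls were all with dilation, 4 of them in dilator muscle, 3 in iris PE and 1 in leukocytes. The leukocyte pair passed the filter on low counts only through its dilated libraries.

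A direct comparison of dilated with constricted irises, which uses no untreated library in the contrast, called 6 of the 37 companion tests higher and none lower, where 1.35% of all tests were called higher and 1.31% lower. In 21 tests the dilated libraries lay above all constricted ones (10.3% of all tests) and in 4 below (14.6%). The calls were Osmr (2.57 ± 0.36), Stat3 (1.31 ± 0.18), Cebpb (3.78 ± 0.38) and Cebpd (2.56 ± 0.33) in dilator muscle and Cebpb (2.14 ± 0.36) and Cebpd (2.35 ± 0.39) in iris PE (log2 change ± SE, edgeR adjusted p from 9.0e-05 to 0.019). In dilator muscle 5.59% of genes were called higher and 4.87% lower, and in iris PE 0.411% and 0.262%. The iris PE calls were lost without constricted replicate 1 or 2 or dilated replicate 2. In iris PE, where Serpina3n stood lower in dilated than in constricted libraries, these C/EBP genes thus stood higher. All comparisons share libraries, so they are not independent of each other.

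Whether the response differed between cell types was tested in 1 joint fit of dilator muscle, iris PE and both kinds of stroma and sphincter nuclei, in which every library had its own term, adjusted over all genes and 15 pairs of cell types. For dilation 9 of 105 companion tests were called, where 3.08% of all tests were, and 8 of the 9 set dilator muscle above another type. That share pools all 15 pairs, and the share for pairs with dilator muscle is not given here. With dilation 1109 genes were called higher and 945 lower in dilator muscle, against 64 and 20 in iris PE. Osmr rose more in dilator muscle than in iris PE, by 2.02 ± 0.39 on the log2 scale (SE, edgeR adjusted p = 0.00038), and Cebpb by 1.55 ± 0.30 (adjusted p = 0.00054). Stat3 rose more in dilator muscle than in iris PE by 0.89 ± 0.21 (adjusted p = 0.0078), and untreated replicate 1 enters that value as above. Its differences between dilator muscle and stroma 1, sphincter 1 and sphincter 2 did not pass (edgeR adjusted p = 0.077, 0.38 and 0.32). For constriction none of 105 was called, with a smallest edgeR adjusted p of 0.74 and 6 tests at an unadjusted p under 0.05, where 0.0378% of all tests were called.

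Whether nuclei with Serpina3n also held the companions was asked within libraries. After thinning to 1000 UMIs, Cebpb was found in 5 of 99 Serpina3n-positive nuclei of dilated dilator replicate 1 (5.05%, exact 95% interval 1.66% to 11.4%) and in 3.81% of 2466 negative nuclei (3.09% to 4.64%). In replicate 2 it was found in 7 of 62 (11.3%, 4.66% to 21.9%) and in 6.52% of 1243 (5.21% to 8.03%). For Osmr the shares were 3.03% and 3.69% in replicate 1 and 6.45% and 4.1% in replicate 2. These intervals overlapped, so that no difference was detectable at this depth. Of the 80 pairs of shares computed over libraries, companions and both cell types, 1 had intervals that did not overlap, Cebpb in iris PE of dilated replicate 1, with 4 of 54 positive nuclei (7.41%, 2.06% to 17.9%) and 23 of 1706 negative nuclei (1.35%, 0.857% to 2.02%). In iris PE of dilated replicate 2 it was found in 0 of 24 positive nuclei and 2.07% of 920 negative nuclei.

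Genes with a mean of at least 10 CPM were compared with Serpina3n over 65 library by cell type sums of at least 50 nuclei. Those whose pattern was most like it were not companions. They were Anks1b (Pearson r = 0.75), Degs1 (0.70), Gm34609 (0.69), App (0.69) and Whrn (0.68), of 10795 genes compared. These sums share libraries, so r is a description. They span cell types as well as treatments, so a high r need not mean a shared change with treatment. Gm34609, for example, was at 690 mean CPM in untreated CB and 5.01 in untreated dilator muscle. Of the companions compared, Cebpd had r = 0.21, Cebpb 0.14, Osmr 0.14, Stat3 -0.07 and Il6st -0.20. Serpina3m, Socs3 and Lcn2 lay below the limit of 10 CPM and were not compared. Like Serpina3n, Anks1b was highest in CB (2212, 1822 and 1610 mean CPM when untreated, constricted and dilated) and higher in dilated than in untreated dilator muscle (534 against 81.7), but in constricted iris PE it was at 59.8 CPM against 45.6 untreated.

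Other genes of the pathway were followed in 9 lists, of which 94 of 112 genes are in the count tables and 78 passed the filter somewhere. With dilation 37 of 427 tests were called higher (8.67%, against 1.87% of all tests) and 1 lower (background 1.47%). In dilator muscle alone 21 of 70 were higher (30%, against 7.2%) and 1 lower (against 6.14%). With constriction none was called by edgeR, with 24 at an unadjusted p under 0.05, while DESeq2 called 3. Since the lists were chosen with results of these data known, their counts are a description.

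Upstream members of the pathway had few calls, near the shares over all tests of 1.87% higher and 1.47% lower. Their counts are thus no result about these genes. Of the interleukin-6 family ligands only Ctf1, Ctf2, Clcf1 and Il27 could be tested, and none of 13 tests was called with dilation or reached an unadjusted p under 0.05 in edgeR or DESeq2. None of 29 tests of other receptor chains was called either, with 4 at an unadjusted p under 0.05 in edgeR and 3 in DESeq2, which ran without the filter. Of the JAK kinases and other STATs, 1 of 66 tests was called, a fall of Stat2 in dilator muscle (-0.88 ± 0.19, SE, edgeR adjusted p = 0.0082). Of the inhibitors, 2 of 95 tests were called, both higher (2.11%). Ptpn1, a tyrosine phosphatase that acts on JAK kinases, rose in dilator muscle (0.95 ± 0.14, SE, edgeR adjusted p = 0.00098). Its relative Ptpn2 rose in stroma 1 (0.89 ± 0.21, SE, edgeR adjusted p = 0.046).

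Genes downstream had shares of calls above that over all tests, in lists chosen with results of these data known. Of the STAT3-responsive genes, 17 of 79 tests were higher (21.5%, against 1.87% of all tests) and none lower (against 1.47%). Their median log2 change was 0.65, against 0.0020 over all tests. In dilator muscle 10 of their 15 tests were higher, where 7.2% of genes were. Junb was higher in 5 cell types, by 1.67 to 3.98, Fos in dilator muscle (5.47 ± 0.96) and iris PE (2.36 ± 0.37), Mcl1 in dilator muscle (2.17 ± 0.24) and sphincter 2 (2.18 ± 0.38), and Cd44 in dilator muscle (1.04 ± 0.21) and stroma 1 (1.45 ± 0.17). Junb and Fos encode AP-1 factors that respond to many stimuli besides cytokines. Among the other C/EBP genes, Ddit3, which encodes the stress factor CHOP, rose in dilator muscle (1.305 ± 0.26).

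Classical acute-phase proteins were represented by 12 testable genes, since liver genes such as Saa1 were not analysed here. Of 45 tests 6 were higher (13.3%, against 1.87% of all tests) and none lower (against 1.47%), with a median of 0.71. In dilator muscle 3 of 8 were higher, where 7.2% of genes were. The metallothionein genes Mt1 (1.89 ± 0.34 in dilator muscle and 0.93 ± 0.26 in sphincter 2) and Mt2 (2.04 ± 0.40 in dilator muscle), the protease inhibitor gene A2m (1.86 ± 0.50 in dilator muscle) and the metalloreductase gene Steap4 (1.397 ± 0.32 in stroma 2) were 4 of the 5 genes called. Glucocorticoid-responsive genes, included because glucocorticoids act together with interleukin-6 at acute-phase genes, had 11 of 73 tests higher (15.1%) and none lower. Their median was 1.13, and in dilator muscle 6 of 11 tests were higher. Dusp1 rose in dilator muscle (2.82 ± 0.53) and stroma 2 (3.41 ± 0.44), Errfi1 in the same cell types (1.94 ± 0.26 and 2.66 ± 0.40), Fkbp5 in dilator muscle (2.62 ± 0.53) and sphincter 1 (2.54 ± 0.50), and Zbtb16 in dilator muscle (1.85 ± 0.43) and sphincter 2 (1.64 ± 0.34). With constriction the medians of the STAT3-responsive, acute-phase and glucocorticoid-responsive lists were -0.17, 0.20 and 0.26, with no call by edgeR and with 7, 11 and 1 tests at an unadjusted p under 0.05. DESeq2, run without the filter on low counts, called 1, 2 and 0 tests of these lists. The list of other Serpina3 cluster genes has 8 members, none of them analysed here.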

How the data were processed

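Nuclei of 8 libraries were profiled on the 10x Genomics platform. Per the labels and the study's methods, the authors aligned reads to exons and introns of mm10 with Cell Ranger 3.1.0, removed nuclei with over 1% mitochondrial transcripts or with under 500 or over 6000 transcripts, and assigned 10 cell types by clustering. The annotation release is not given in the sources used here. The authors deposited raw UMI counts per gene and nucleus, with the counts, genes and percent of mitochondrial transcripts of each nucleus and its cell type. The summed counts equalled the total given for the nucleus in 31650 of 34357 nuclei (92.1%). The source of the difference in the others was not tested.

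UMIs of the nuclei of 1 cell type in 1 library were added up. CPM are relative to the sum. edgeR 4.0.16 (R 4.3.3, TMM, filterByExpr, glmQLFit, glmQLFTest, 2-sided, all 8 libraries, no covariate) tested each cell type, with adjustment within the cell type and not over the 10 cell types. DESeq2 1.42.0 was an alternative, run on all genes with a UMI in the cell type, so its tests are a larger set. SE were taken as the absolute log2 fold change over the square root of F. On data simulated for the dilator comparison over 15015 genes, 58.5% of changes of 1 and 91.7% of changes of 2 on the log2 scale were recovered, and in leukocytes, over 2750 genes, 22.5% and 74.5%. Doublets were scored per library with Scrublet, called 359 nuclei (1.04%), and were left out in an alternative only.

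Libraries are separate pools of irises. The study used 5 processing batches and 2 sequencing runs, and which library was in which is not given in the sources used here. Where all libraries of a group had 0 UMIs, folds were computed against 3 UMIs in the pooled group, and none are given where both groups had at most 3 UMIs or the lower had 1 to 3. Thinning drew 1000 UMIs per nucleus at random and left out shallower nuclei. The 10 genes are those asked for by name, and of each list at most 4 called genes per treatment are named, those called in most cell types and then with the largest change. The genes and the lists were chosen with earlier results of these data known.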

Additional observations from a re-analysis of the deposited data

Results flagged for a closer look

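The tests of a difference between cell types called 9 companion results for dilation, given here as the difference of the log2 changes in the first and the second cell type (edgeR, adjusted over all genes and 15 pairs). Osmr rose more in dilator muscle than in stroma 1 by 2.33 ± 0.51, than in stroma 2 by 2.24 ± 0.35 and than in iris PE by 2.02 ± 0.39 (SE). Cebpb rose more in dilator muscle than in stroma 1 by 3.04 ± 0.54, than in stroma 2 by 2.23 ± 0.30 and than in iris PE by 1.55 ± 0.30 (SE). Stat3 rose more in dilator muscle than in stroma 2 by 0.90 ± 0.22 and than in iris PE by 0.89 ± 0.21 (SE). The remaining result was Il6st, whose change in iris PE minus that in stroma 1 was -0.79 ± 0.22 (SE, edgeR adjusted p = 0.03), while neither change was called on its own. No group held 4 or more libraries, so that single libraries could not be tested as outliers.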

How the results depend on the processing

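The 8 companion calls for dilation numbered 4 to 8 with 1 library left out, and were 4, all in dilator muscle, without untreated replicate 2, untreated replicate 3 or dilated replicate 2. The calls for dilated against constricted numbered 4 to 7, and 10 without the filter on low counts. None appeared for constriction in any alternative (0 to 0 with 1 library left out). The differences between cell types numbered 6 to 10 for dilation and 0 to 0 for constriction with 1 library left out. Calls in the pathway lists numbered 16 to 56 for dilation with 1 library left out (38 with all, 16 without dilated replicate 2 and 23 without untreated replicate 3), 86 without the filter and 79 with the library series as a term. For constriction they numbered 0 to 2 with 1 library left out, 3 with DESeq2, 7 without the filter and 2 with the series term. The cause was not tested.

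Replicate numbers were taken to pair libraries where every same-numbered pair had a correlation of deviations over 0.1. This held for 20 of 42 pairs over 6 cell types, in a range of -0.055 to 0.57, so the block is an alternative. Libraries of replicate 1 did deviate together in dilator muscle, iris PE, stroma 1 and stroma 2 (0.11 to 0.57), and those of replicate 3 in dilator muscle, iris PE and stroma 2 (0.21 to 0.29), while constricted replicate 2 did not go with its number in any cell type (-0.055 to 0.0097). With a replicate block the companion calls were 7 for dilation, 0 for constriction and 7 for dilated against constricted, and the list calls for constriction were 3. The block removed the Osmr call in iris PE.

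The median over cell types of the log2 ratio of Serpina3n, 2.59 for dilation and 2.12 for constriction at a pseudocount of 1 CPM, was 3.88 and 3.28 at 0.1 and 0.84 and 0.44 at 10, since most cell types hold few UMIs. With 1 library left out it was 1.60 to 2.89 and 1.44 to 2.20, the lowest values without dilated replicate 1 and without constricted replicate 1. In CB the constricted log2 ratio was 0.36, -0.044 without constricted replicate 1 and 0.87 without untreated replicate 1. DESeq2 moved the median change of all genes by -0.13 in endothelial cells with dilation and by less than 0.1 elsewhere. With 1 dilated library left, its spread is assumed to equal that of the other groups. With 2 or 3 libraries a group and few UMIs in rare cell types, small changes could not be detected.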
